A study of Mus musculus with 3 samples.

Results

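The 10 genes described here handle lipid in macrophages or belong to the Trem2 receptor system, and they were taken by name from 36835 mouse genes measured by RNAseq. They are Trem2 and Tyrobp, which form a receptor complex, Apoe, Abca1 and Abcg1, which move cholesterol out of cells, Lpl, Fabp4, Fabp5 and Plin2, which take up, carry or store fatty acids, and Gpnmb, a membrane glycoprotein. For each gene the levels of its transcripts were summed. All 10 were found, and each was measured above 0 in every library. The levels were highest in the library labelled CD4 for 6 genes, in that labelled M1 for 2 genes and in that labelled M2 for 2 genes, and 8 genes were lowest in the library labelled M2.

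The cells came from BALB/C mice that carried tumors of Renca, a mouse renal carcinoma cell line, injected into the kidney. The labels name the line Renca, and the study describes the injected cells as Renca Ch+L+, a form of the line that carries Cherry and Luciferase. Tumors and spleens were dissociated and stained with antibodies to CD45.2, TCRbeta, CD4, F4/80 and CD11b, and the cells were separated on a FACS sorter. The study defined M2 macrophages as cells with high F4/80 and intermediate CD11b, M1 macrophages as cells with intermediate F4/80 and high CD11b, and CD4 T cells as TCRbeta and CD4 positive. Material from 30 tumors and 4 spleens was pooled, and 1 library was sequenced for each subset. All the mice bore tumors, and no group came from tumor-free mice. The labels give day 16 for the harvest in one place and day 14 in another, and they name both spleen and renal tumor as the source of the CD4 T cells. With 1 library per subset no difference has a replicate check, no test was possible and no p-value is given. In bulk RNA of sorted cells, fewer cells of a type and less RNA per cell cannot be told apart.

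Levels are given in FPKM, the number of fragments scaled to transcript length in kilobases and to the size of the library. Because of the division by length, levels of different genes may be set side by side. Depth was not part of the table. It was estimated from the level of a single fragment as 61400000 fragments for the library labelled M1, 58100000 for M2 and 72500000 for CD4. The counting intervals printed below are 95% exact Poisson intervals from these estimates and cover counting error only.

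Genes that define the sorted cells went against the labels M2 and CD4. Cd3e, a chain of the CD3 complex of T cells, stood at 0.131 FPKM in the library labelled M1, 126 FPKM in M2 and 0.141 FPKM in CD4. The 11 T-cell markers examined were each highest in the library labelled M2. Their summed level was 1783 FPKM there, 6.19 FPKM in M1 and 17.0 FPKM in CD4. Cd247 was listed at 0 in M1 and CD4. Cd4 itself stood at 0.870 FPKM in the library labelled M1, 166 FPKM in M2 and 15.2 FPKM in CD4, most of the sum there. Each of 11 macrophage markers was lower in the library labelled M2 than in both others. Their summed level was 602 FPKM there, 7973 FPKM in M1 and 11626 FPKM in CD4. For this reason a library is called by its label alone, and every direction below is one between labels.

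Trem2 is a surface receptor of macrophages, osteoclasts and microglia that binds lipids, lipoproteins and apolipoproteins including Apoe. It has no signalling motif of its own and signals through the adaptor Tyrobp, also called DAP12, which recruits the kinase Syk. Macrophages that take up much lipid export cholesterol through Abca1 and Abcg1 to apolipoprotein acceptors such as Apoe. The genes of both transporters and of Apoe are textbook targets of the liver X receptors (LXR), which sense oxidised cholesterol. Macrophages that express Trem2 with lipid genes are known from fat tissue, arterial plaques and tumors.

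Of the 10 genes, 3 had several transcripts above 0. Bases at which some of these transcripts differ in the annotation are shown because the levels rest on how fragments were shared among them. Each line holds bases from the MM9 build (NCBIM37), 5′ to 3′ on the gene's strand. In the first 3 lines and the last, the bases before the capitals end an exon and the capitals begin the next exon. In both Fabp5 lines the bases before the capitals come from more than 1 exon, spliced together, and begin at position 10015138 in Fabp5-201 and 10015141 in Fabp5-001. In the line for Fabp5-001 the capitals are the 5 bases that Fabp5-201 lacks.
Trem2-001: acacagcacctccagGAATCAAGAGACCTC
Trem2-002: acacagcacctccagGCAGGTTTCATCCTG
Apoe-002: ctctggtggagcaagGTGGCCCTGTCTCAA
Fabp5-001: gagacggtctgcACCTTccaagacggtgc
Fabp5-201: actgagacggtctgcCCAAGACGGTGCCCT

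The Trem2 lines join chr17:48490502-48490516 to chr17:48491071-48491085 in Trem2-001 and to chr17:48491016-48491030 in Trem2-002. Exon 4 thus begins 55 bases earlier in Trem2-002, and the coding sequence is 747 bases long against 681 bases in Trem2-001. Apoe lies on the minus strand, and the Apoe-002 line joins chr7:20282073-20282087 to chr7:20281672-20281686. This leaves out 386 bases of the last exon of Apoe-001, from 20281687 to 20282072, and the coding sequence is 663 bases long against 933 bases in Apoe-001. The 5 bases marked in Fabp5-001 lie at chr3:10015481-10015485. Fabp5-001 has 405 coding bases and Fabp5-201 has 387.

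The receptor and its adaptor were both lowest in the library labelled M2 and parted between the other two. Trem2 (ENSMUSG00000023992, chr17:48485726-48493472, plus strand) stood at 47.7 FPKM in the library labelled M1, 5.74 FPKM in M2 and 129 FPKM in CD4. Its level was thus highest in the library labelled CD4, at 2.69 times the level in M1 and 22.4 times that in M2. The counting intervals, 46.2 to 49.2 FPKM, 5.17 to 6.38 FPKM and 126 to 131 FPKM, did not overlap. Tyrobp (ENSMUSG00000030579, chr7:31198807-31202596, plus strand), the adaptor, stood at 688 FPKM in the library labelled M1, 68.0 FPKM in M2 and 700.0 FPKM in CD4. The first and last of these levels had overlapping counting intervals, 679 to 697 FPKM and 692 to 708 FPKM, and were 10.1 and 10.3 times that in M2. So the adaptor was at like levels in the libraries labelled M1 and CD4, where the receptor differed.

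Most of the Trem2 level came from the transcript with the shorter coding sequence. Trem2-001 stood at 34.8 FPKM in the library labelled M1, 3.89 FPKM in M2 and 91.5 FPKM in CD4, which was 72.9%, 67.7% and 71.2% of the gene. Trem2-002, whose exon 4 begins earlier, stood at 9.63 FPKM, 1.86 FPKM and 28.5 FPKM in the same order. Its share was 20.2% in the library labelled M1, 32.3% in M2 and 22.1% in CD4. Trem2-003, annotated as a retained intron, stood at 3.32 FPKM in the library labelled M1, was listed at 0 in M2 and stood at 8.60 FPKM in CD4. Both coding transcripts were therefore highest in the library labelled CD4 and lowest in M2, as the gene was.

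Apoe and Abca1 had the largest excess of the library labelled CD4 over that labelled M1 among the 10 genes. Apoe (ENSMUSG00000002985, chr7:20281458-20284515, minus strand), the apolipoprotein that carries cholesterol from macrophages, stood at 687 FPKM in the library labelled M1, 197 FPKM in M2 and 5211 FPKM in CD4. The level in the library labelled CD4 was 7.59 times that in M1 and 26.4 times that in M2. It lay at percentile 99.99 of all genes above 0 there, 99.8 in M1 and 99.1 in M2. Apoe was therefore among the most abundant transcripts of every library, also of that labelled M2 with its T-cell genes.

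The 3 Apoe transcripts kept close shares. Apoe-001 made up 59.0% of the gene in the library labelled M1, 62.4% in M2 and 58.3% in CD4. Apoe-002 made up 22.7%, 18.5% and 22.1%, and Apoe-010 18.3%, 19.1% and 19.6%. Apoe-001 alone was 7.49 times higher in the library labelled CD4 than in M1, Apoe-002 7.39 times and Apoe-010 8.14 times, so the gap did not rest on 1 transcript.

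Abca1 (ENSMUSG00000015243, chr4:53043659-53172767, minus strand), which loads cholesterol on lipid-poor apolipoproteins, stood at 14.1 FPKM in the library labelled M1, 4.86 FPKM in M2 and 60.8 FPKM in CD4. This was 4.33 times higher in the library labelled CD4 than in M1 and 12.5 times higher than in M2. With all its entries summed, Abca1 stood at 7.50 FPKM in the library labelled M2, which makes the gap to M2 smaller. Abcg1 (ENSMUSG00000024030, chr17:31194643-31252722, plus strand), the transporter that passes cholesterol to mature high-density lipoprotein, stood at 6.48 FPKM in the library labelled M1, 8.53 FPKM in M2 and 6.55 FPKM in CD4. Unlike Abca1, it was highest in the library labelled M2, by 1.32 times over M1, and its counting intervals in M1 and CD4 overlapped. The 2 transporters thus differed in which library was highest.

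Lpl had its highest level in the library labelled M1. Lpl (ENSMUSG00000015568, chr8:71404390-71431347, plus strand), the enzyme that frees fatty acids from circulating triglyceride, stood at 23.6 FPKM in the library labelled M1, 0.898 FPKM in M2 and 3.73 FPKM in CD4. It was 26.3 times higher in the library labelled M1 than in M2 and 6.34 times higher than in CD4. Lpl was the only member that was higher in M1 than in CD4 by 2-fold or more.

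The 2 fatty acid binding proteins were at modest levels. Fabp5 (ENSMUSG00000027533, chr3:10012548-10016607, plus strand), the epidermal form that macrophages also use, stood at 12.6 FPKM in the library labelled M1, 2.16 FPKM in M2 and 15.9 FPKM in CD4. Its counting intervals were 11.7 to 13.6 FPKM, 1.78 to 2.58 FPKM and 14.99 to 16.9 FPKM, which did not overlap. Fabp4 (ENSMUSG00000062515, chr3:10204347-10208576, minus strand), the form known from adipocytes and macrophages, stood at 1.83 FPKM in the library labelled M1, 1.17 FPKM in M2 and 2.13 FPKM in CD4. These Fabp4 levels rest on about 72, 43 and 98 fragments. Their counting intervals were 1.44 to 2.32 FPKM, 0.841 to 1.57 FPKM and 1.72 to 2.59 FPKM, so that only the lowest and the highest library did not overlap.

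Within Fabp5 the transcript annotated without the 5 bases, Fabp5-201, was given the highest level in each library. Fabp5-201 and Fabp5-001 also differ in their annotated starts and ends. Whether fragments in these data lacked the 5 bases was not tested. Fabp5-201 stood at 9.71 FPKM in the library labelled M1, 1.23 FPKM in M2 and 11.3 FPKM in CD4. Fabp5-001 made up 17.2% of the gene in the library labelled M1, 36.1% in M2 and 20.6% in CD4. The larger share in the library labelled M2 rests on a gene level of about 119 fragments. The table also lists a pseudogene of Fabp5, Fabp5l2, at 0.460 FPKM, 0.222 FPKM and 0.371 FPKM in the libraries labelled M1, M2 and CD4, and how reads that match both were divided is not given in the sources used here.

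Plin2 and Gpnmb were abundant in all 3 libraries. Plin2 (ENSMUSG00000028494, chr4:86294290-86315964, minus strand), the coat protein of lipid droplets, stood at 219.9 FPKM in the library labelled M1, 74.6 FPKM in M2 and 191 FPKM in CD4. The level in the library labelled M1 was the highest, 1.15 times that in CD4 and 2.95 times that in M2. With all its entries summed, Plin2 stood at 222 FPKM in the library labelled M1, 109 FPKM in M2 and 191 FPKM in CD4, a smaller gap to M2. Gpnmb (ENSMUSG00000029816, chr6:48986517-49020928, plus strand), a lysosomal and surface glycoprotein of lipid-laden macrophages, stood at 32.1 FPKM in the library labelled M1, 82.6 FPKM in M2 and 31.3 FPKM in CD4. It was highest in the library labelled M2, by 2.57 times over M1 and 2.64 times over CD4, and its counting intervals in M1 and CD4 overlapped. Of the 10 genes, only Gpnmb had a level in the library labelled M2 at least 2 times that in each of the others. With further entries that the table holds for Gpnmb it stood at 55.1 FPKM, 114 FPKM and 32.7 FPKM in the libraries labelled M1, M2 and CD4, so that M1 and CD4 then differed.

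**Figure D1:**
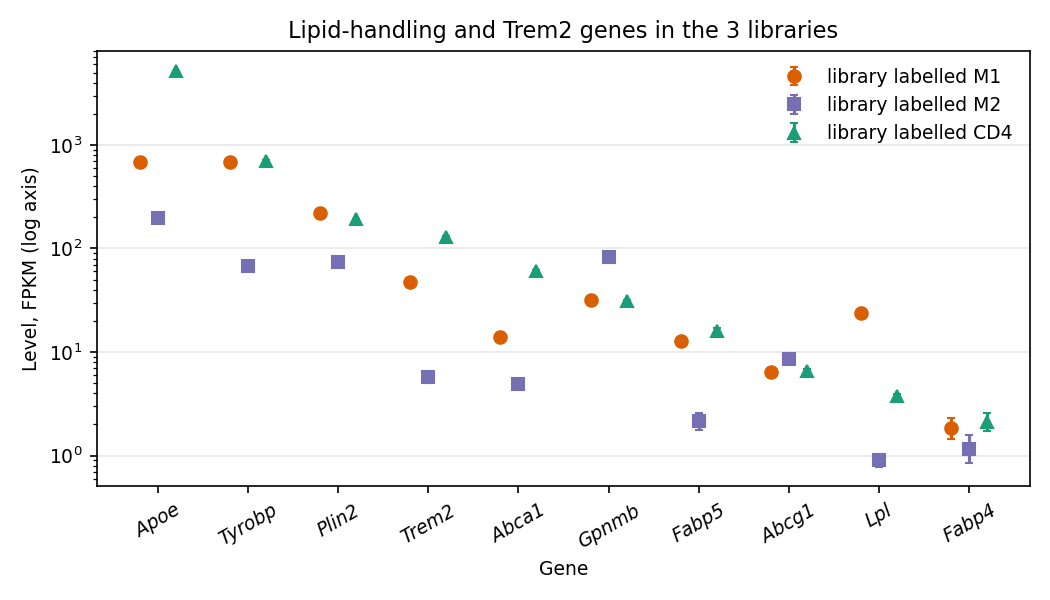
Levels of the 10 genes in the libraries labelled M1, M2 and CD4, in FPKM on a log axis, with 1 point per library and bars for the 95% counting interval. Apoe in the library labelled CD4 sits highest at 5211 FPKM, 8 of the 10 genes are lowest in the library labelled M2, and Gpnmb and Abcg1 are highest there.

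The spread among the 10 genes differed between the libraries. Their summed level was 1733 FPKM in the library labelled M1, 446 FPKM in M2 and 6351 FPKM in CD4. Apoe made up 39.6% of this sum in the library labelled M1, 44.3% in M2 and 82.0% in CD4. The median member stood at 27.9 FPKM, 7.14 FPKM and 46.1 FPKM, so that the sum and the median kept the same order of libraries while Apoe took most of the sum in the last.

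The order of the genes by level also changed. In the library labelled M1 Tyrobp and Apoe led, with overlapping counting intervals, followed by Plin2, Trem2, Gpnmb, Lpl, Abca1, Fabp5, Abcg1 and Fabp4. In that labelled M2 the order was Apoe, Gpnmb, Plin2, Tyrobp, Abcg1, Trem2, Abca1, Fabp5, Fabp4 and Lpl, and the last pair overlapped. In that labelled CD4 it was Apoe, Tyrobp, Plin2, Trem2, Abca1, Gpnmb, Fabp5, Abcg1, Lpl and Fabp4. Lpl thus moved from the middle of the order in the library labelled M1 to its end in M2, while Gpnmb moved up to the place behind Apoe. Parts of this order depend on which entries of the table are used. With all entries summed, Gpnmb (55.1 FPKM) stood above Trem2 (47.7 FPKM) in the library labelled M1, and Abca1 (7.50 FPKM) stood above Trem2 (5.74 FPKM) in that labelled M2.

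**Figure D2:**
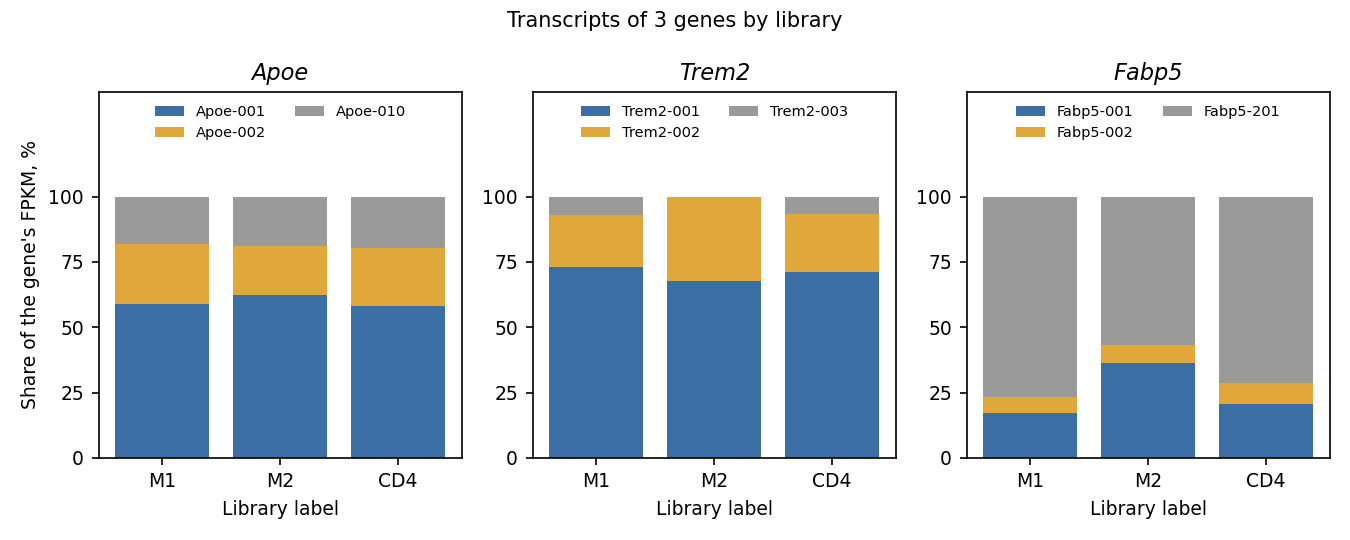
Share of each gene's FPKM, in percent, that came from each of its transcripts above 0, for Apoe, Trem2 and Fabp5 in the 3 libraries. The shares of Apoe are close in all libraries, while Trem2-002 and Fabp5-001 take larger shares, 32.3% and 36.1%, in the library labelled M2.

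Differences between libraries were taken on the log2(FPKM + 1) scale, which understates the change of low genes, and a gene was called higher or lower at a difference of 1 or more in size. Between the libraries labelled M1 and M2, 7 of the 10 genes were higher in M1, namely Apoe, Trem2, Tyrobp, Lpl, Fabp5, Abca1 and Plin2, and Gpnmb was lower. Of all genes 4.90% were higher and 5.73% lower by the same measure, and of genes with at least 1 FPKM in either library 14.5% and 17.0%. The median log2 difference of the 10 genes was 1.67, from −1.34 for Gpnmb to 3.70 for Lpl, beside a median of 0 for all genes and −0.10 for those with at least 1 FPKM. Tyrobp (3.32), Trem2 (2.85) and Fabp5 (2.11) followed Lpl in log2 difference. Fabp4 (0.39) and Abcg1 (−0.35) were not called, nor was Abca1 (0.82) once all its entries in the table were summed.

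Between the libraries labelled CD4 and M2 7 of the 10 genes were higher in CD4, namely Apoe, Trem2, Tyrobp, Lpl, Fabp5, Abca1 and Plin2, and Gpnmb was lower. Among all genes 5.17% were higher and 5.85% lower, and among those with at least 1 FPKM 15.3% and 17.3%. The median log2 difference of the members was 1.88, beside 0 for all genes and −0.12 for those with at least 1 FPKM. Apoe had the largest log2 difference of the 10, 4.72, followed by Trem2 with 4.26 and Abca1 with 3.40. Plin2 was not called once all its entries were summed (0.81). Both comparisons share the library labelled M2, where every macrophage marker was lower as well. The median log2 difference of these 11 markers was 2.68 for M1 against M2 and 4.34 for CD4 against M2. Their part in the members' values was not tested.

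The third comparison, between the libraries labelled CD4 and M1, sets the 2 libraries with macrophage genes side by side. It shares a library with each of the others. Of the 10 genes, Apoe, Abca1 and Trem2 were higher in the library labelled CD4, with log2 differences of 2.92, 2.04 and 1.41, and Lpl was lower by −2.38. Among all genes 2.20% were higher and 2.28% lower, and among those with at least 1 FPKM 6.98% and 7.24%. The median log2 difference of the 10 genes was 0.08, beside 0 for all genes and −0.01 for those with at least 1 FPKM. The other 6 genes lay between −0.20 for Plin2 and 0.31 for Fabp5. Within these, Gpnmb differed by −0.04 as deposited and by 0.0021 after scaling to the upper quartile, and by −0.73 once all its entries in the table were summed.

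**Figure D3:**
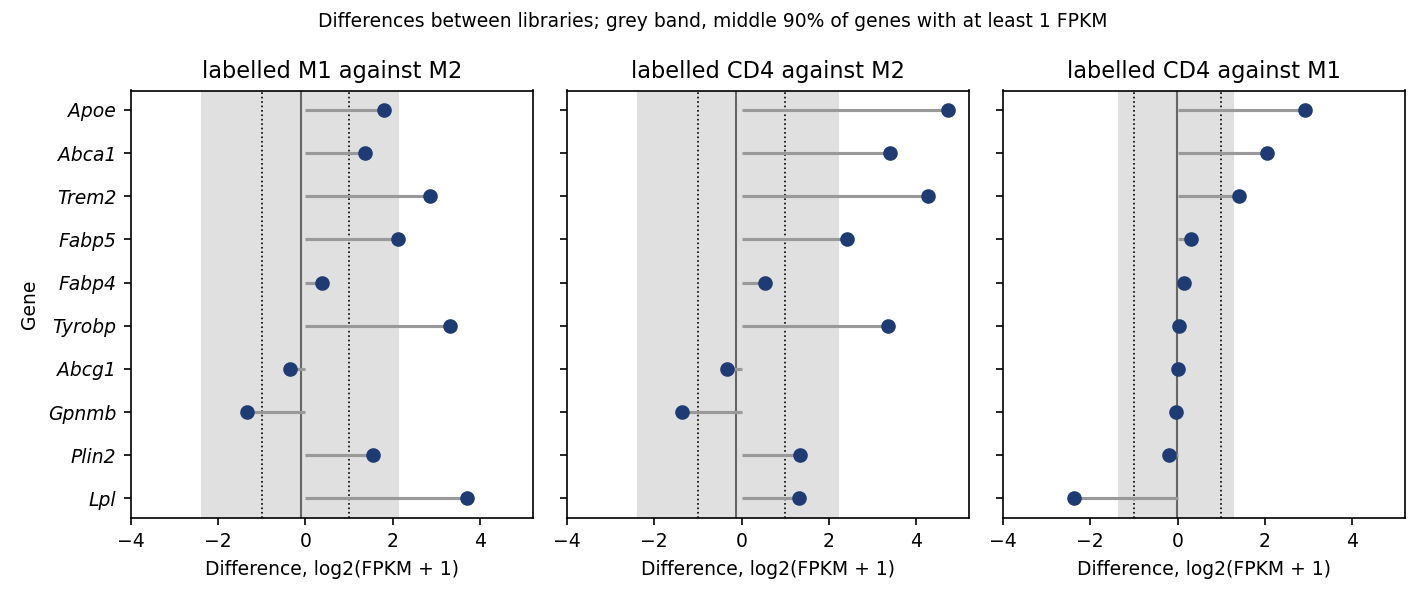
Differences of the 10 genes on the log2(FPKM + 1) scale in the 3 comparisons between libraries, with 1 point per gene, a grey band for the middle 90% of genes with at least 1 FPKM in either library, a grey line for their median and dotted lines at a log2 difference of 1 in each direction. In the last panel Apoe, Abca1 and Trem2 lie to the right of the dotted lines and Lpl to the left.

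Markers of other cell types moved with some of these comparisons. All 6 monocyte genes were lower in the library labelled CD4 than in M1. Ccr2, the chemokine receptor of inflammatory monocytes, stood at 526 FPKM in the library labelled M1, 23.1 FPKM in M2 and 183 FPKM in CD4. Ly6c2 stood at 64.5 FPKM, was listed at 0 and stood at 1.97 FPKM in the same order. The summed monocyte level was 744 FPKM, 302 FPKM and 194 FPKM, with Vcan listed at 0 in the library labelled CD4. All 6 fibroblast genes were highest in the library labelled CD4, with summed levels of 6.91 FPKM, 10.01 FPKM and 31.9 FPKM in those labelled M1, M2 and CD4 and none at 0. Macrophage markers moved as well, with 4 of 11 called higher in the library labelled CD4 than in M1 and none called lower. Their median log2 difference was 0.86. Of the 11, 9 were highest in the library labelled CD4 and 2 in M1. These 2 were Itgam, which encodes CD11b, with a log2 difference of −0.57, and Cd14 with −0.18. Emr1, which encodes F4/80, stood at 45.3 FPKM in the library labelled M1, 9.16 FPKM in M2 and 215 FPKM in CD4. The part of macrophage, monocyte or fibroblast RNA in the gaps of Apoe, Trem2, Abca1 and Lpl between the libraries labelled CD4 and M1 was not tested.

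Genes of adipocytes, cells that express Lpl, Fabp4 and Plin2, were near 0. None of 6 adipocyte genes reached 1 FPKM, with summed levels of 0.0061 FPKM in the library labelled M1, 0.098 FPKM in M2 and 0.057 FPKM in CD4, and Lep and Cidec were listed at 0 in all 3. Endothelial genes, of which Fabp4 is also a marker in capillaries, summed to 4.86 FPKM, 38.2 FPKM and 5.71 FPKM, and Pecam1 alone gave 35.0 FPKM in the library labelled M2, while none of the 7 was at 0. For 4 melanocyte genes, which share Gpnmb, all values were at 0 except Mlana at 0.022 FPKM in the library labelled CD4. Kidney epithelium genes summed to 40.8 FPKM, 108 FPKM and 57.1 FPKM, most of it Cdh16, and Umod was listed at 0 in the library labelled M1. The library labelled M2, in which Gpnmb and Abcg1 were highest, also had the highest sums of neutrophil genes (85.2, 235 and 37.6 FPKM in M1, M2 and CD4), B-cell genes (0.441, 51.9 and 0.508 FPKM) and NK and cytotoxic genes (3.50, 16.9 and 0.469 FPKM). The neutrophil list was mixed, with 5 of its 8 genes highest in the library labelled M2. Csf3r stood at 19.7 FPKM, 8.40 FPKM and 25.3 FPKM in the same order, and Mmp8 at 15.9 FPKM, 1.08 FPKM and 1.38 FPKM. Dendritic cell genes summed to 32.5 FPKM, 130 FPKM and 3.52 FPKM, and 4 of the 6 were highest in the library labelled M2. Ccr7 alone gave 122 FPKM there, and without it the sums were 26.0 FPKM, 7.98 FPKM and 3.05 FPKM. Cd209a alone gave 23.7 FPKM of this in the library labelled M1. Among the defining genes of these cell types Ly6g, Cd79b and Prf1 were listed at 0 in the library labelled M2, Camp and Prf1 in M1, Camp and Klrb1c in CD4 and Pax5 in all 3. The part of these cell types in the levels of Gpnmb and Abcg1 was not tested.

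Of 85 other genes of lipid handling and the Trem2 system in 8 lists, 29 were higher and 5 lower in the library labelled M1 than in M2. Against the library labelled M2, 24 were higher and 5 lower in that labelled CD4. Between the libraries labelled CD4 and M1, 4 were higher in CD4 and 14 lower, with a median log2 difference of 0, which for the members was 3 higher and 1 lower. The background shares are those given above for each comparison.

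Cd36, the fatty acid and oxidised lipoprotein receptor, stood at 10.8 FPKM in the library labelled M1, 1.08 FPKM in M2 and 3.51 FPKM in CD4. It was among the 2 of 10 lipid receptors and apolipoproteins called lower in the library labelled CD4 than in M1, with none higher, and it was not called when the highest entry of each identifier was used (−0.90). Msr1, a scavenger receptor for modified lipoprotein, stood at 203 FPKM in the library labelled M1, 7.96 FPKM in M2 and 262 FPKM in CD4. Apoc2, a neighbour of Apoe and the cofactor of Lpl, stood at 4.51 FPKM, 0.711 FPKM and 7.58 FPKM, and Apoc4, beside it, was listed at 0 in all 3. The other neighbour, Apoc1, stood at 0.546 FPKM, 0.304 FPKM and 0.882 FPKM, so the gene cluster held levels far under that of Apoe.

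Among 10 LXR, PPAR and sterol regulators and targets, only Mylip, an LXR target that encodes a ubiquitin ligase, was called between the libraries labelled CD4 and M1. It stood at 4.82 FPKM in the library labelled M1, 12.6 FPKM in M2 and 16.2 FPKM in CD4, a log2 difference of 1.57. Nr1h3, which encodes LXR alpha, stood at 6.38 FPKM, 2.84 FPKM and 7.77 FPKM, a log2 difference of 0.25 between CD4 and M1. Nr1h2, which encodes LXR beta, stood at 27.8 FPKM, 26.9 FPKM and 25.4 FPKM. Pparg, the nuclear receptor that drives Fabp4 in adipocytes, stood at 2.61 FPKM, 0.522 FPKM and 2.48 FPKM. None of these 3 receptors was called between the libraries labelled CD4 and M1.

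Of 16 genes of lipid droplets, esterification and lipolysis, 4 were lower in the library labelled CD4 than in M1 and none was higher. Soat1, which esterifies cholesterol for storage, stood at 58.4 FPKM in the library labelled M1, 22.5 FPKM in M2 and 22.7 FPKM in CD4. Hilpda, a droplet protein that inhibits lipolysis, stood at 50.96 FPKM, 13.8 FPKM and 15.7 FPKM. G0s2 and Lipe were lower by log2 differences of −1.16 and −1.08, and Lipe was not called once all its entries in the table were summed (−0.32). The median log2 difference of the 16 genes was −0.0044, and that of the member Plin2 was −0.20, so Plin2 was not called, like most of this list. Pnpla2, the main triglyceride lipase of droplets, had a log2 difference of 0.54 in the other direction and was not called.

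Of 8 genes of cholesterol export and lysosomal lipid, 6 had their highest level in the library labelled CD4, with a median log2 difference of 0.47 against M1, and none was called higher. Scarb2 (0.73) and Smpd1, the acid sphingomyelinase (0.66), had the largest log2 differences. Gm2a, the activator protein for ganglioside breakdown, was the 1 called gene. It stood at 195 FPKM in the library labelled M1, 12.7 FPKM in M2 and 84.6 FPKM in CD4. With all its entries summed, the log2 difference of Gm2a between CD4 and M2 fell from 2.64 to 0.70.

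Of 19 genes of the Trem2 pathway and of lipid-associated macrophages, 3 were higher in the library labelled CD4 than in M1 and 3 lower. Ctsb, a lysosomal protease, stood at 370 FPKM in the library labelled M1, 162 FPKM in M2 and 1116 FPKM in CD4. With all its entries summed, the log2 difference of Ctsb between M1 and M2 fell from 1.19 to 0.24. Cd63, a tetraspanin of lysosomes and exosomes, stood at 55.2 FPKM, 74.8 FPKM and 186 FPKM. Both of these encode proteins found in lysosomes. Itgax, which encodes CD11c, stood at 124 FPKM, 5.30 FPKM and 29.5 FPKM in the libraries labelled M1, M2 and CD4. Lgals3, galectin-3, stood at 850.1 FPKM, 166 FPKM and 298 FPKM, and Clec7a, the receptor Dectin-1, at 70.9 FPKM, 2.53 FPKM and 21.5 FPKM. The call of Clec7a was lost when the highest entry of each identifier was used (−0.94).

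The signalling partners of Trem2 were not called between the libraries labelled CD4 and M1. Syk, the kinase that Tyrobp recruits, stood at 62.3 FPKM in the library labelled M1, 12.6 FPKM in M2 and 46.1 FPKM in CD4. Plcg2, the phospholipase behind it, stood at 51.2 FPKM, 8.48 FPKM and 32.9 FPKM. Hcst, which encodes the adaptor DAP10, stood at 6.27 FPKM, 49.2 FPKM and 6.38 FPKM. Hcst was thus highest in the library labelled M2, where Tyrobp was lowest.

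Other Trem family members did not have the pattern of Trem2. Trem1, which also signals through Tyrobp, stood at 18.3 FPKM in the library labelled M1, 1.41 FPKM in M2 and 3.08 FPKM in CD4. Trem3 stood at 7.29 FPKM, 0.779 FPKM and 1.96 FPKM. Both were lower in the library labelled CD4 than in M1, by log2 differences of −2.25 and −1.49, where Trem2 was higher by 1.41. Treml4 stood at 7.82 FPKM, 2.11 FPKM and 7.54 FPKM, and Treml1 and Treml2 were listed at 0.

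Of the other Fabp genes only Fabp7, the brain form, exceeded 1 FPKM, with 1.36 FPKM in the library labelled M1, 0.069 FPKM in M2 and 0.191 FPKM in CD4. Among 12 genes of fatty acid oxidation and synthesis, 2 were lower in the library labelled CD4 than in M1. Scd2, a fatty acid desaturase, stood at 93.9 FPKM in the library labelled M1, 65.5 FPKM in M2 and 23.8 FPKM in CD4, and was not called once all its entries were summed (−0.65). Acadl (0.21) and Acsl1 (0.17) had the largest log2 differences in the other direction and were not called. An entry of 0 may be a failed estimate, since Acaca and the ribosomal protein gene Rps18 were listed at 0 in all 3 libraries.

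**Figure D4:**
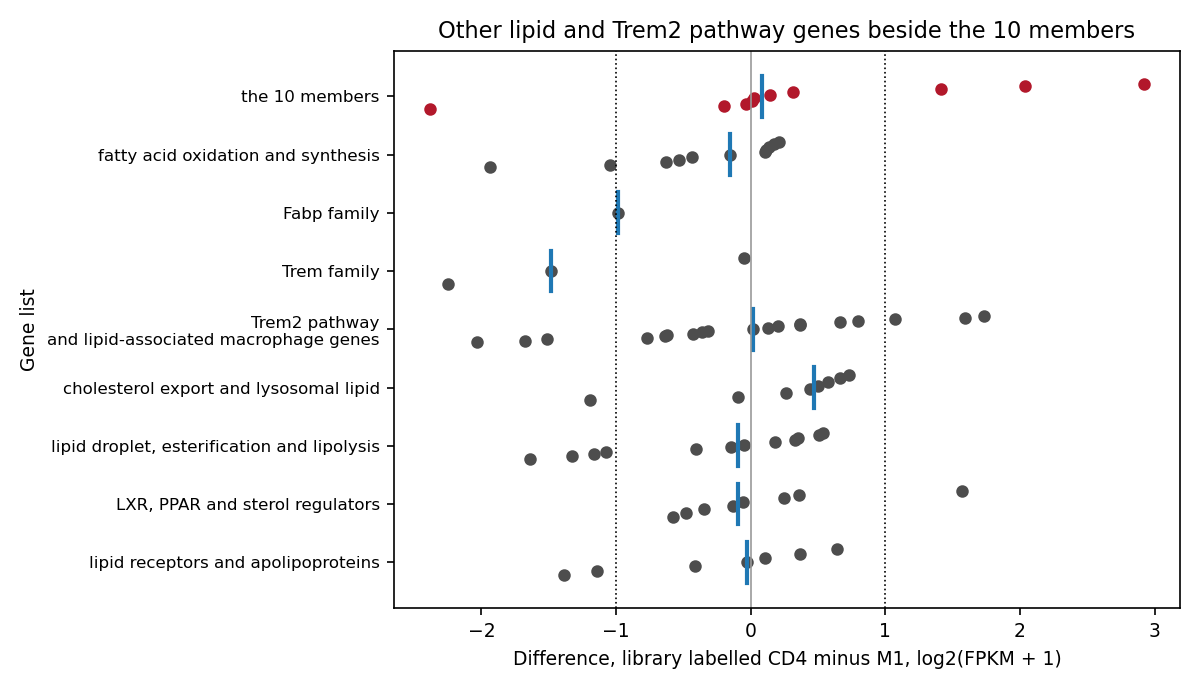
Differences between the libraries labelled CD4 and M1 on the log2(FPKM + 1) scale for the 10 members in red and for 8 lists of other genes in grey, for genes with at least 1 FPKM in either library, with blue bars at each list's median and dotted lines at a log2 difference of 1 in each direction. Apoe at 2.92 and Lpl at −2.38 lie farthest out among all points shown.

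Genes with the profile closest to that of a member were sought among 7038 genes with at least 10 FPKM in at least 1 library, by the distance between log2(FPKM + 1) values after each gene's own mean over the 3 libraries was subtracted. Among the 5 closest to Trem2 were Gm11428 (distance 0.140), Marcks (0.229), Pf4 (0.230) and Trf (0.259). Marcks stood at 44.0 FPKM in the library labelled M1, 5.70 FPKM in M2 and 102 FPKM in CD4. Closest to Gpnmb were Trim21 (distance 0.0068), Rev3l (0.020), Anxa6 (0.041), Sbf1 (0.043) and Nr2c2 (0.047), and Trim21 stood at 3.95 FPKM, 11.6 FPKM and 3.83 FPKM. Closest to the median profile of the members were Rnpep (0.365), Ctsz (0.365), 2610001J05Rik (0.366), Ccl24 (0.370) and 5430435G22Rik (0.373). A profile over 3 libraries holds few values, and the names are given as a description.

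Promoter sequences were read for 5 of the 10 genes, Apoe, Trem2, Gpnmb, Abca1 and Plin2, from RefSeq windows of 300 bases on GRCm38.p6, which run from 250 bases before the start to 50 bases after it. Exact letters were searched on both strands in the 7 windows of these genes and in all 32851 windows. The nuclear receptor letters AGGTCA were in the windows of Trem2 and Plin2 and in 16.3% of all windows. The same letters repeated, as AGGTCANAGGTCA or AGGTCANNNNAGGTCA, were in none of the 7 and in 0.0396% and 0.0152% of all. A looser form with 4 bases between the repeats, NGGTNANNNNNGGTCA, chosen after the sequences were seen, was in the window of Abca1 and in 0.207% of all. The E-box letters CACGTG were in the windows of Abca1 and Plin2 and in 7.15% of all, and CATGTG in none of the 7 and in 14.2% of all. AGAGGAA was found for Apoe and in 10.4% of all windows, and TATAAA for Abca1 and Apoe and in 13.6%.

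The stretches that matched AGGTCA, in Trem2 and Plin2, and the looser repeat, in Abca1, are shown so that they can be read beside the levels of these genes, of which Abca1 and Trem2 were called higher in the library labelled CD4 than in M1 and Plin2 was not. Each is given 5′ to 3′ on the gene's strand, with the matched letters in capitals, which read on the opposite strand in all 3.
Abca1: cagcgttTGACCGGTAGTAACCCcggcgct
Trem2: cgggaaagcagcTGACCTttactgtagaag
Plin2: tttcaggaccccTGACCTaagtcagacagc

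On GRCm38.p6 these are chr4:53159940-53159969 on the minus strand for Abca1, chr17:48346321-48346350 on the plus strand for Trem2 and chr4:86670260-86670289 on the minus strand for Plin2. The matches lie 67, 68 and 218 bases before the start. A match of letters is a description of the sequence, and binding was not measured in these data. Apoe, with the largest log2 difference between the libraries labelled CD4 and M1, had no match to AGGTCA or to the looser repeat in its 3 windows.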

How the data were processed

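The authors trimmed paired reads, aligned them to MM9 with Bowtie and TopHat, and used Cufflinks guided by the Ensembl annotation, and the submitters' processing notes also name Cuffdiff. The deposited table gives transcript levels in FPKM, and how its libraries were joined is not given in the sources used here. It holds 135070 entries for 92519 Ensembl identifiers. For each identifier the first entry with values in all 3 columns was kept, 90430 in all. Of these, 88278 were in the GENCODE annotation of NCBIM37 and were summed to 36835 genes. Columns were assigned by heading.

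Differences were taken on log2(FPKM + 1), with a pseudocount of 1 FPKM and a limit of 1, and no test was run. Levels of the Fabp5, Trem2 and Apoe transcripts depend on how Cufflinks divided shared fragments. For depth, FPKM was multiplied by length in genes with 1 transcript, and the commonest low product was taken as 1 fragment (145, 134 and 149 transcripts).

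The members, the 8 pathway lists, the 12 marker lists and the motifs were chosen with earlier results of these data known. The genes named are the members, the 2 list genes with the highest and the 2 with the lowest difference between the libraries labelled CD4 and M1, list genes past the limit where 5 or fewer were, markers, and the 5 genes closest in profile to Trem2, Gpnmb and the median member. Rps18 and further list genes were named after their values were seen. Of 86 list genes 85 were matched, Hilpda and Syk by older symbols, and Hmgcs1 was not analysed here. Some genes that this rule names are not reported here by themselves and are part of the list counts. Alternatives covered the entry kept per identifier, the pseudocount, scaling, minimum level, limit and transcript type. Calculations were tested on simulated data. The tools were matplotlib 3.10.9, scipy 1.17.1, pandas 2.3.3, numpy 2.4.6 and Python 3.11.15.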

Additional observations from a re-analysis of the deposited data

Results flagged for a closer look

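Some identifiers of the members had more than 1 entry in the table, and the entries after the kept one hold signal that the levels above do not include. For Gpnmb these further entries summed to 23.0 FPKM in the library labelled M1, 31.2 FPKM in M2 and 1.46 FPKM in CD4. With them Gpnmb would stand at 55.1 FPKM, 114 FPKM and 32.7 FPKM, still highest in the library labelled M2, and the library labelled CD4 would be lower than M1 by a log2 difference of −0.73. For Plin2 the further entries summed to 2.48 FPKM in the library labelled M1 and 34.2 FPKM in M2. For Abca1 they summed to 2.64 FPKM in the library labelled M2. How the table came to hold several entries for 1 identifier is not given in the sources used here, and whether they are separate molecules was not tested.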

How the results depend on the processing

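No paired analysis was possible because 1 library stood for each subset, and for the same reason no replicate could be left out. There were 333 member differences under the alternatives. A log2 limit of 2 or a minimum level leaves a member's difference as it is. The agreement of these settings was fixed in advance and is no check. The same holds for the settings of the entry kept, except for the 3 members with further entries. It also holds for coding transcripts only, except for Trem2 and Fabp5, which had a non-coding transcript above 0. With all of these included, the fold between the libraries changed by a factor of less than 1.5 for 330 of the 333. None of those past a log2 difference of 1 changed sign. The 3 that changed more were Gpnmb between CD4 and M1 with all entries summed (−0.73) and Lpl with a pseudocount of 0.1, at 4.57 for M1 against M2 and 1.94 for CD4 against M2. With all entries of an identifier summed, 2 calls were lost, Abca1 between M1 and M2 (1.36 to 0.82) and Plin2 between CD4 and M2 (1.35 to 0.81). A minimum of 10 FPKM left 7 members in the comparison of CD4 with M2 and gave a median log2 difference of 3.34. At a log2 limit of 2 the called members were 4 in place of 8 for M1 against M2. They were 5 in place of 8 for CD4 against M2 and 3 in place of 4 for CD4 against M1. Of all genes, 1.87% were higher and 2.17% lower at that limit for M1 against M2. The shares were 1.96% and 2.21% for CD4 against M2, and 0.703% and 0.733% for CD4 against M1. Rescaled to a total of 1000000, 5.19% of all genes were higher and 9.52% lower in M1 than in M2, in place of 4.90% and 5.73%, and 5.61% and 9.42% for CD4 against M2, while the called members were unchanged in number. With a pseudocount of 0.1 the shares were 7.41% and 10.3% for M1 against M2 and 4.47% and 4.17% for CD4 against M1. The comparison of CD4 with M1 on entries that need no value in M2, chosen after seeing the data, gave the same number of called members. Depth limits Fabp4 most, and Lpl and Fabp5 in the library labelled M2.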
